A study of Mus musculus with 14 samples.

Results

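Trim28 and Zbtb45 are neighbouring genes of mouse chromosome 7, and the data give the RNA of each parental copy of both genes in every clone. They were 2 of the 472 genes of a capture panel and were chosen by name, after their RNA was seen to be lower from a chromosome that lacks the enhancer Chen2008-1. The loss on the modified chromosome is therefore given as a description. Levels of the unmodified copy, summed levels, the balance of the parental copies in control clones and the ratio between both genes were tested where the design allowed it. The unmodified copy is also the denominator of the ratio by which the pair was noticed, so its level is not independent of that choice. Summed levels, and the ratios over sums and on the modified copy, include the copy whose loss chose the pair. They are not independent of that choice either.

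The samples were 14 clones of a female F1 mouse embryonic stem cell line between the strains 129 and Castaneus (CAST). The cells were grown without serum, with LIF, a MEK inhibitor and a GSK3 inhibitor. All clones carried an enhancer deletion, and none was free of both deletions. In the Chen2008-1 set, 6 clones lacked the enhancer on the CAST chromosome (genotype +/-: B8, D3, E3, E7, G3 and H7) and 2 lacked it on the 129 chromosome (-/+: D10 and D2). In the Chen2008-25 set, 5 clones lacked that other enhancer on both chromosomes (KO -/-: B4, C4, G2, H2 and H4) and 1 lacked it on 129 (-/+: E6). The Chen2008-25 clones served as controls for this gene pair, because their Chen2008-1 enhancer was unmodified. The genotype table does not say which sign stands for which strain. The signs were read here as 129 first and CAST second, as the line's name has it. B3gnt7, a gene that follows the Chen2008-25 genotype, had a 129 share of 26.0% in E6 against 54.3% ± 8.52 (SD, n = 5) in the KO clones. With the opposite order the modified copies described here would be the unmodified ones.

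Polyadenylated RNA was enriched for the panel genes with capture probes (hybrid selection), and reads were counted separately for both parental copies. The libraries of the Chen2008-1 set held 135881 (D10) to 1331965 (D3) allelic reads, and those of the Chen2008-25 set 239430 to 891466. The clone set goes together with the enhancer and with a number in the column headers, so in levels the enhancer and the origin of the clones cannot be told apart. A ratio between the copies of a clone compares copies that share the same nuclei, over many cells, and 1 library. None of the 9 embryonic stem cell markers, 8 markers of primed or differentiating cells and 4 feeder fibroblast markers that were looked for is a panel gene, so the labelled cell type was not checked. Beyond the clone names, nothing says whether the cultures were separate, and a p-value here reflects how far clones of 1 parental line spread.

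Trim28 encodes a co-repressor, also known as KAP1, that is brought to DNA by zinc-finger proteins with a KRAB domain. There it recruits the histone methyltransferase SETDB1 and heterochromatin proteins of the HP1 family, and in embryonic stem cells it is known for keeping endogenous retroviruses silent. Zbtb45 belongs to the BTB zinc-finger genes, whose products bind DNA through zinc fingers and pair through the BTB domain. An enhancer raises transcription from promoters on its own chromosome, which is why a heterozygous deletion in hybrid cells separates a local effect from one that reaches both copies.

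In the GENCODE annotation of the later build GRCm38, Trim28 lies on the plus strand and Zbtb45 on the minus strand of chromosome 7. Trim28 has 10 annotated transcripts and only 1 of them, with 17 exons (13024152 to 13031035), is protein coding. All 5 Zbtb45 transcripts are protein coding, within 13003898 and 13010034. The coding transcripts do not overlap: they are divergent, with 14.1 kb between their starts. The only overlap comes from 1 non-coding Trim28 transcript that begins at 12999114, ends at 13028525 and so spans Zbtb45. Exonic bases shared by both genes amounted to 0, so a spliced read of one gene does not match an exon of the other in this annotation. No source used here says whether strand was used in counting. The deposited counts refer to the build mm9, per the submitters' processing notes, and carry no coordinates; the positions given here serve only to describe the layout of the genes.

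The proximal promoters are shown because each parental copy of these genes was measured from its own promoter while the enhancer was present or absent. The 250 bases before each start are from RefSeq (GRCm38.p6, the reference genome and neither the 129 nor the CAST sequence), written 5′ to 3′ in the direction of transcription. Capitals mark GC boxes in Trim28 (GGGCGG, here in the reverse orientation CCGCCC) and an ETS core motif (CCGGAAG) in Zbtb45. They lie at chr7:13023902-13024151 on the plus strand for Trim28 and at chr7:13009853-13010102 on the minus strand for Zbtb45.
Trim28: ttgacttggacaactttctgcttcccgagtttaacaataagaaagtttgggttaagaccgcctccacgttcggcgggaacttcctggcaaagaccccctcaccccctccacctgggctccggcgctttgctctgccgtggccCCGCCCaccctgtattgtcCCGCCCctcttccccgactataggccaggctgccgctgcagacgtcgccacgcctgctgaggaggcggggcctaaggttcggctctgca
Zbtb45: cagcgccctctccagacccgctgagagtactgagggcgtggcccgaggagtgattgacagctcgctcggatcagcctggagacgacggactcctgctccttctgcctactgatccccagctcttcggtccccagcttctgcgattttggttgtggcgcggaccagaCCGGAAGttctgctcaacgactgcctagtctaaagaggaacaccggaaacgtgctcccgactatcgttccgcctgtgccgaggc

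Both windows were rich in G and C, with 62.0% and 17 CpG dinucleotides for Trim28 and 61.2% and 20 CpG dinucleotides for Zbtb45. The medians over 32851 RefSeq windows of that length were 52.4% and 6. Letter strings for 5 motifs were searched on both strands. The Trim28 window held 2 GC boxes, at -108 and -89, and a GC box occurs in 32.7% of all windows. The Zbtb45 window held 1 ETS core, at -84, which occurs in 6.91% of all windows. Neither window held the letters of a CCAAT box, which are in its name and occur in 33.8% of all windows. The TATA box was searched as TATAAA (12.4% of all windows) and was in neither window. The same holds for the core of a cyclic AMP response element, searched as TGACGT (6.47% of all windows). The motifs do not overlap each other, and a match describes letters, not binding. Another annotated Zbtb45 transcript starts inside the Zbtb45 window.

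Trim28 supplied more allelic reads than any other panel gene, 7.23% of all of them and between 5.39% and 10.8% of each library. Zbtb45 was at rank 17 of 471 genes, with 0.980% of the reads. These shares are per read and not per length, and they depend on the capture probes, so they do not order the genes by transcript number. The smallest count behind any value of the pair was the 129 copy of Zbtb45 in D10, at 285 of 1270 reads.

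The first comparison asks whether the deletion acts on the copy in cis. In the 6 clones deleted on CAST, the 129 copy of Trim28 gave 65.0% to 69.7% of the allelic reads, with a median of 67.5%. The 129 share was 29.0% in D10 and 31.3% in D2, both deleted on 129. In the 6 control clones it lay between 48.9% and 50.3%, with a median of 50.2%. The shares of the 3 groups did not overlap, and the controls sat near an even split. A 129 share above all controls in the clones deleted on CAST was found for 4.15% of genes, and one below all controls in the clones deleted on 129 for 7.91%.

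For Zbtb45 the displacement was larger in both directions. The 129 share ran from 70.2% to 74.1% in the clones deleted on CAST, with a median of 72.1%. It was 22.4% in D10 (95% Wilson interval 20.2 to 24.8%) and 22.1% in D2. The controls ran from 44.9% to 48.8%, with a median of 47.5%, below an even split in 6 of 6 clones. Full separation in the order 129-deleted, control, CAST-deleted was found for 2 of 427 genes with enough reads (0.468%), and those were Trim28 and Zbtb45. This ordering is what the pair was chosen for and is given as a description.

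**Figure D1:**
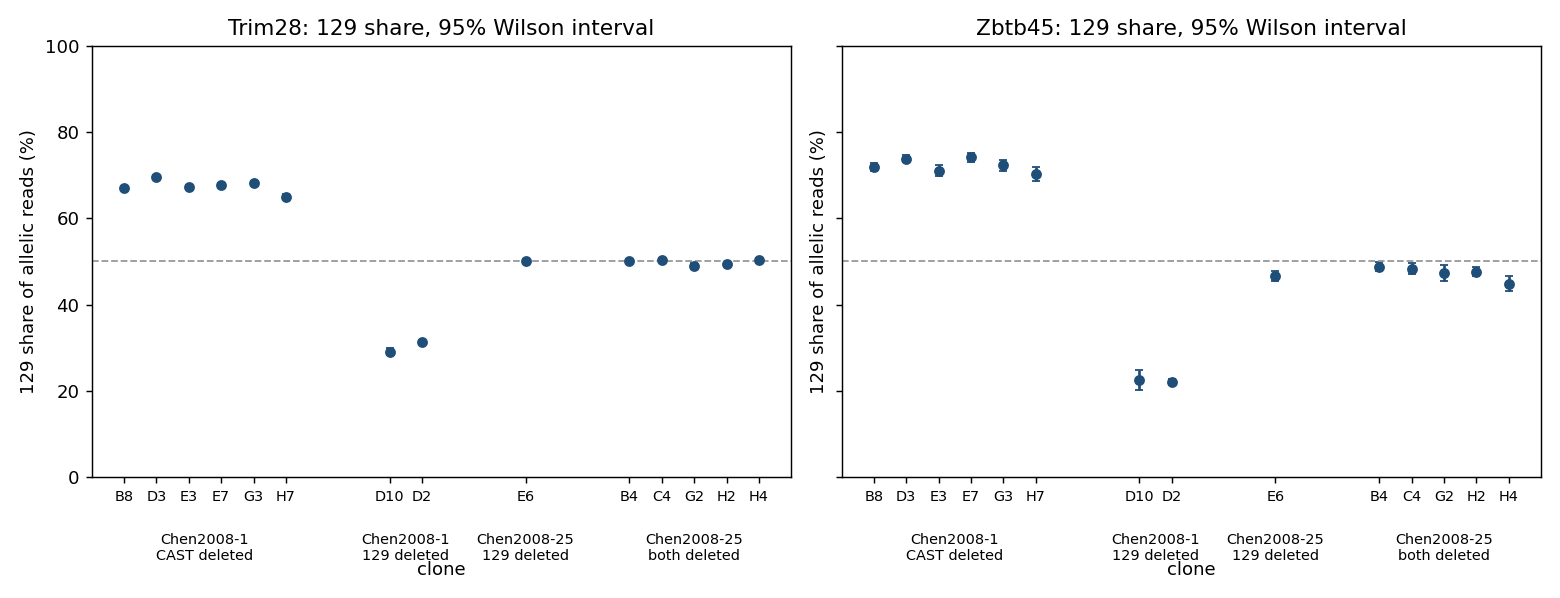
The 129 share of allelic reads (y axis, percent) in each clone (x axis), for Trim28 on the left and Zbtb45 on the right; points are single clones, bars are 95% Wilson intervals for counting error only, and the dashed line is an even split. The intervals take each read as independent and are too narrow if both mates of a fragment were counted. Clones deleted on CAST sit at 65.0% or above for both genes, clones deleted on 129 at 31.3% or below, and the Chen2008-25 clones between 44.9% and 50.3%.

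Within a clone, the modified copy of Trim28 gave 48.2% ± 3.38 (SD, n = 6) of the reads of the unmodified copy where CAST was deleted, and 40.9% and 45.6% where 129 was deleted. For Zbtb45 the same percentages were 38.5% ± 2.93 (SD, n = 6), and 28.9% and 28.3%. Zbtb45 was kept less than Trim28 in 8 of 8 clones, by between 0.26 and 0.69 on the log2 scale before any correction for the balance of the copies in controls.

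The fit over all clones, which sets the modified against the unmodified copy and takes the balance of the copies from the controls, gave a log2 effect of -1.58 (SE 0.03) for Zbtb45. That corresponds to 33.4% of the unmodified copy (95% interval 31.8 to 35.1%). For Trim28 the effect was -1.12 (SE 0.03), or 46.2% (44.5 to 47.9%). No p is given for these values, since this contrast chose the pair. Of 448 genes tested, 0.893% passed the edgeR threshold in this contrast (4 genes, or 15 without D2), and the others of the 4 were the neighbours Ube2m and Zfp446.

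The reciprocal deletions ask whether the loss depends on the parental background. Where 129 was deleted, Zbtb45 fell by 1.65 and Trim28 by 1.20 on the log2 scale, and where CAST was deleted they fell by 1.54 and 1.06. Zbtb45 differed between the backgrounds by -0.11 (95% interval -0.30 to 0.08, edgeR adjusted p = 0.583). For Trim28 it was -0.13 (95% interval -0.27 to -0.003, edgeR adjusted p = 0.242). Neither gene passed, while 11.4% of 448 genes did (51 genes, or 22 without D2). On simulated counts this comparison recovered 7.1% of differences of 0.5 and 69.0% of differences of 1.5 (log2). The simulation drew each copy on its own, with the same spread for all genes, so these rates are not those of the pair. The intervals of both genes did not reach a difference of 0.5 in either direction. A missed threshold still says little about differences as small as their estimates. Without clone D3, Trim28 passed (-0.16, edgeR adjusted p = 0.0388). The point estimates of both genes put the larger loss on the 129 chromosome, with only 2 clones on that side.

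The balance of the parental copies with the enhancer present was read from the 6 Chen2008-25 clones. The 129 copy of Zbtb45 was at 89.8% of the CAST copy (95% interval 86.4 to 93.3%, log2 -0.16, SE 0.03, edgeR adjusted p = 7.98e-06), lower in 6 of 6 clones. Such a call was common, at 64% of 436 genes, with 28% lower on 129. The Trim28 copies differed by -0.01 on the log2 scale (95% interval -0.03 to 0.01, edgeR adjusted p = 0.519). For Trim28, whose 129 copy was at 99.4% of the CAST copy, the interval of that percentage ran from 97.9 to 101%.

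Each copy was then set against the same copy in the controls. Levels are in CPM, counts per 1000000 allelic reads of the library after TMM scaling, and in these bulk libraries fewer expressing cells and less RNA per cell cannot be told apart. The unmodified 129 copy of Zbtb45 stood at 6288 to 7154 CPM in the clones deleted on CAST, with a median of 6662. The same copy of the controls stood at 4465 to 5314 CPM, with a median of 4863. The ranges did not overlap: 6 of 6 clones were above all controls, as were those of 16.3% of genes. The unmodified CAST copy stood at 7784 CPM in D10 and 8075 CPM in D2, against 4908 to 5919 CPM in the controls, with a median of 5526. Both clones were above all controls, as were those of 23.4% of genes.

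The unmodified copy of Zbtb45 was thus higher in the Chen2008-1 clones, to 138% of the control level on 129 (log2 0.46, SE 0.06, edgeR adjusted p = 1.94e-06). On CAST it was at 146% (log2 0.55, SE 0.09, edgeR adjusted p = 0.000204). A change passed in 53.6% of 412 genes on 129 (29.6% higher) and in 37.2% of 395 genes on CAST (23.3% higher). The CAST count was 147 genes, or 89 without D2. The 129 estimate of Zbtb45 lay at percentile 77.9 of the genes tested and the CAST estimate at percentile 81.8, so shifts of this size between the clone sets were frequent in the panel.

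Trim28 showed no such separation. Its unmodified 129 copy stood at 35500 to 55584 CPM in the clones deleted on CAST, with a median of 44748, against 38373 to 54215 CPM in the controls, with a median of 45134. Its unmodified CAST copy stood at 62822 CPM in D10 and 39698 CPM in D2, against 38733 to 56635 CPM. These ranges overlapped. The log2 difference was -0.01 on 129 (95% interval -0.25 to 0.23, edgeR adjusted p = 0.954) and 0.16 on CAST (SE 0.20, edgeR adjusted p = 0.563), with wide intervals in both directions. The CAST value rested on 2 unlike clones: it was -0.21 without D10 and 0.40 without D2.

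The modified copies of both genes had point estimates between 46.8% and 47.9% of the control level. On 129, Zbtb45 was at 46.8% (95% interval 41.1 to 53.3%) and Trim28 at 47.9% (37.1 to 61.7%). On CAST, Zbtb45 was at 47.4% (42.8 to 52.4%) and Trim28 at 47.9% (38.8 to 59.1%). In CPM, the modified CAST copy of Zbtb45 stood at 2225 to 2909 against 4908 to 5919 in the controls, and that of Trim28 at 15468 to 29924 against 38733 to 56635. Every modified copy of both genes was below all controls, in 6 of 6 and in 2 of 2 clones; such separation downward held for 11.8% of genes on CAST and 21.4% on 129. By these point estimates, Zbtb45 departed from Trim28 on the unmodified copy. A shift of the whole Zbtb45 level between the clone sets together with a larger loss in cis, and an equal loss in cis with a gain on the other copy, cannot be told apart from these levels.

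**Figure D2:**
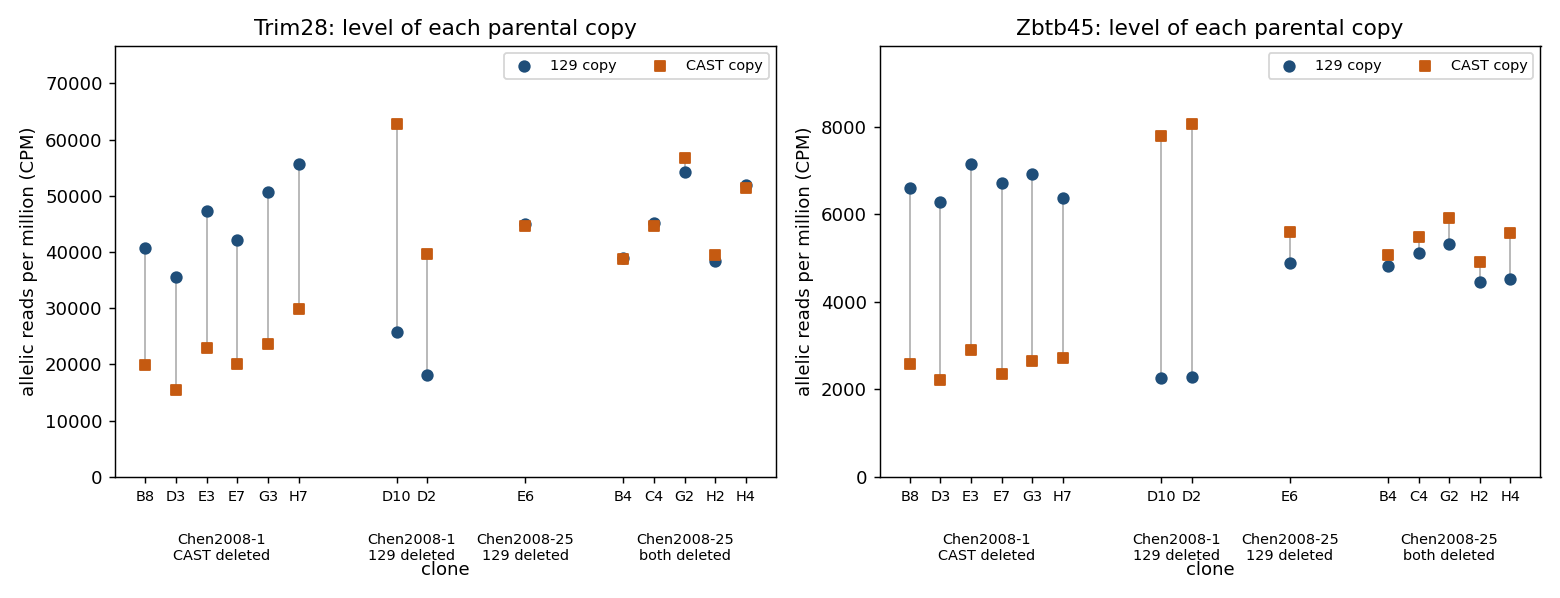
Level of the 129 copy (circles) and the CAST copy (squares) in each clone, in CPM (y axis, from 0), with a grey line joining the copies of a clone; Trim28 is on the left and Zbtb45 on the right. The higher copy of Zbtb45 in the Chen2008-1 clones sits between 6288 and 8075 CPM, above all Chen2008-25 values, while the higher copy of Trim28 overlaps its Chen2008-25 values.

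The ratio of Zbtb45 to Trim28 within a library needs no scaling factor and was tested on its own. It was not adjusted for depth, with which Trim28 fell more steeply than Zbtb45 (log2 -0.25 and -0.05 per doubling). It is not a ratio per length, so only its difference between clones is read. On the unmodified 129 copy there were 15.03 ± 2.18 (SD, n = 6) Zbtb45 reads per 100 Trim28 reads where CAST was deleted, against 10.8 ± 1.33 (SD, n = 6) for the controls. The ratio was 1.39-fold higher (log2 difference 0.47, two-sided exact permutation p = 0.00649, 0.0195 after adjustment over 3 ratios), although the ranges overlapped. The smallest p this design allows is 0.00216.

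On the modified CAST copy the ratio was 12 ± 1.81 (SD, n = 6) against 11.9 ± 1.05 (SD, n = 6), a 0.998-fold difference (exact permutation p = 0.97, log2 difference -0.059 to 0.075 when 1 clone was left out). The gap between the results on both copies equals the difference of the cis effects, which chose the pair, and was not tested. The clones deleted on 129, too few for a test, gave 1.33-fold on the unmodified CAST copy and 0.982-fold on the modified 129 copy. Over the sums of both copies the ratio was 14.2 ± 2.50 (SD, n = 8) against 11.4 ± 1.16 (SD, n = 6), 1.24-fold higher (log2 difference 0.31, exact permutation p = 0.0253, 0.038 after adjustment). Without G2 or without H4 the last p was 0.0559 or 0.0575. The lowest ratios of the Chen2008-1 set over sums were those of its shallowest libraries, 11.3 in D10 and 10.6 in H7.

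**Figure D3:**
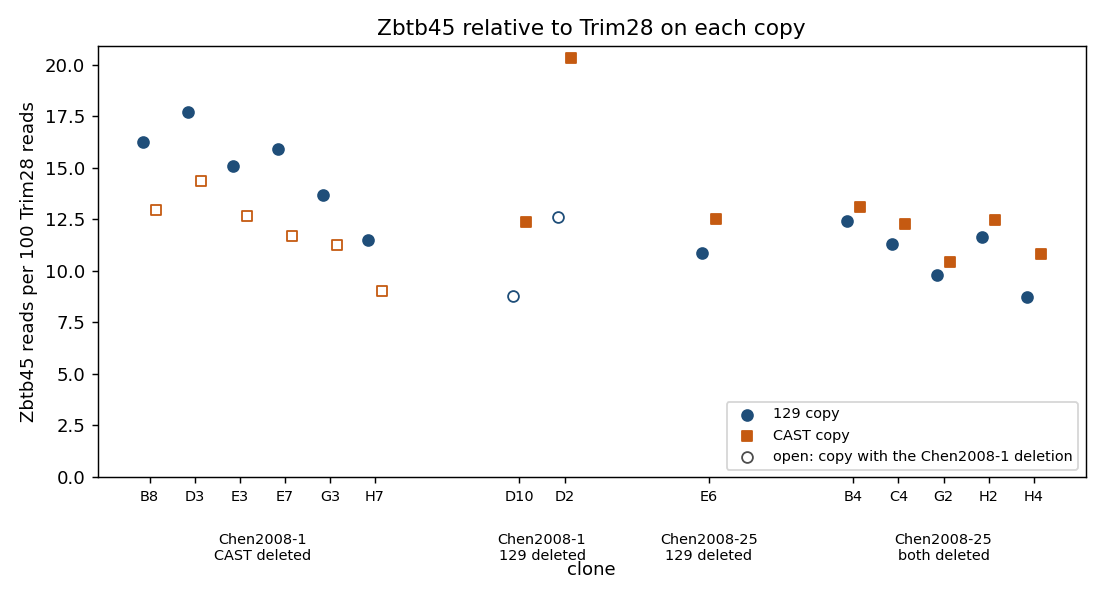
Zbtb45 reads per 100 Trim28 reads (y axis, from 0) on the 129 copy (circles) and the CAST copy (squares) of each clone; open symbols are copies with the Chen2008-1 deletion and filled symbols are all other copies. Open symbols overlap the Chen2008-25 values, and the filled symbols of the Chen2008-1 clones average 1.39-fold (129) and 1.33-fold (CAST) higher.

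The summed level sets the RNA of both copies together in the Chen2008-1 clones against that in the Chen2008-25 clones. Trim28 stood at 50969 to 88504 CPM in the 8 Chen2008-1 clones (median 66276) and at 77633 to 110850 CPM in the 6 Chen2008-25 clones (median 89805). The ranges overlapped: 6 of 8 clones were below all controls. The fitted level was 75.1% of the controls (95% interval 63.3 to 89.1%, log2 -0.41, SE 0.12, edgeR adjusted p = 0.00507). That is close to the 73.1% that the cis estimate gives if the unmodified copy stays at the control level. Both figures come from the same copies, so the match restates the unmodified level given above. The sum includes the modified copy, whose loss chose the pair, so this p is not an independent test of a loss.

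Zbtb45 stood at 8513 to 10362 CPM in the Chen2008-1 clones (median 9393) and at 9374 to 11233 CPM in the Chen2008-25 clones (median 10295). Here 4 of 8 clones were below all controls. The fitted level was 92.3% (95% interval 85.3 to 99.8%, log2 -0.12, SE 0.05, edgeR adjusted p = 0.0664), which missed the threshold. The same arithmetic on its cis estimate gives 66.7%, well below the interval of the measured sum. This gap likewise restates the higher unmodified copy and is no separate evidence for it. Zbtb45 passed with DESeq2 (-0.15, adjusted p = 0.0146), with library totals alone (-0.15, edgeR adjusted p = 0.00904) and with upper-quartile factors (-0.24, edgeR adjusted p = 0.00238). A call in the summed level was common, at 63.8% of 448 genes, and 29.5% of genes were called lower.

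Trim28 levels moved with sequencing depth. Among the 8 Chen2008-1 clones each deeper library had a lower summed Trim28 CPM, from 88504 in D10 through 85508 in H7 to 50969 in D3. Pearson's r with depth was -0.98 and Spearman's rho -1 (each exact permutation p = 4.96e-05, the smallest possible, and 0.000397 after adjustment over 8 relations), and r was -0.95 without D10 and D3. Among the 6 Chen2008-25 clones r was -0.98 (exact permutation p = 0.00833, adjusted 0.0333) and rho -0.94 (p = 0.0167, adjusted 0.0667), with r = -0.99 without G2 and H2. For Zbtb45, r was -0.36 (exact permutation p = 0.368, adjusted 0.42) and -0.79 (p = 0.0667, adjusted 0.138), and the second value dropped to -0.19 without G2 and H2.

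In a fit over both sets, each doubling of depth went with 83.9% of the Trim28 level (log2 -0.25, SE 0.02, edgeR adjusted p = 1.17e-06). The slope of Zbtb45 was -0.05 (SE 0.03, edgeR adjusted p = 0.6). Of 448 genes, 9 were called (2.01%), all of them lower with depth. The 20 most abundant genes had a median r with depth of -0.71 and -0.77 in the Chen2008-1 and Chen2008-25 sets. Trim28 is the most abundant of them. The depth relations were computed after the values had been seen. With log2 depth in the fit, summed Trim28 was at 78% of the controls (log2 -0.36, edgeR adjusted p = 1.23e-06), and the SE was 0.04 in place of 0.12.

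**Figure D4:**
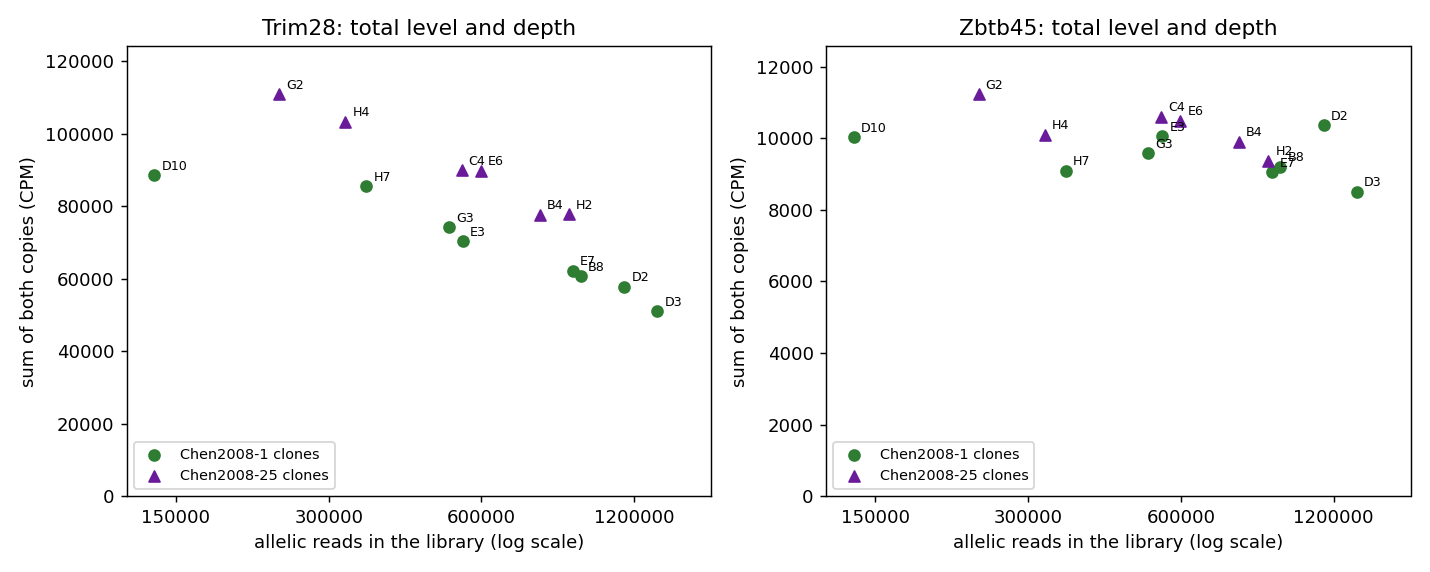
Sum of both copies (y axis, CPM, from 0) against allelic reads in the library (x axis, log scale) for Trim28 on the left and Zbtb45 on the right; circles are Chen2008-1 clones and triangles Chen2008-25 clones. Trim28 falls with depth in both sets, from 88504 to 50969 CPM among the circles, and at like depth the circles lie below the triangles.

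The same adjustment left the other levels as follows. Summed Zbtb45 was at 93.1% (edgeR adjusted p = 0.0678). The unmodified 129 copy of Trim28 was at 107% of the controls (log2 0.09, SE 0.04, edgeR adjusted p = 0.0772) and that of Zbtb45 at 139% (edgeR adjusted p = 1.19e-06). On CAST the unmodified copies were at 102% for Trim28 and 145% for Zbtb45. The modified copies were at 45% and 46.7% on 129, and at 52.1% and 48.3% on CAST, for Trim28 and Zbtb45. The gap between both genes thus stayed larger on the unmodified than on the modified copies. The gap itself was not tested. The allelic shares of each gene gave no relation with depth that passed (4 relations of 6 clones each, lowest adjusted permutation p = 0.138). In the clones deleted on CAST, r was 0.75 for Trim28 and 0.79 for Zbtb45, or -0.47 and 0.51 without D3 and H7. In the controls r was 0.15 and 0.56, or -0.69 and 0.87 without G2 and H2. With 6 clones, a trend of the shares with depth could have been missed.

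Whether the pair varies together among clones of 1 kind was tested in 4 relations. Among them, the highest correlation of the 129 shares was r = 0.81 in the 6 clones deleted on CAST (exact permutation p = 0.0472, adjusted 0.128; rho = 0.77, p = 0.103, adjusted 0.206), and it was 0.45 without D3 and H7. In the Chen2008-25 clones the shares gave r = -0.14 (p = 0.878, adjusted 0.878, exact permutation; rho = -0.09, p = 0.919). For summed CPM, r was 0.31 (exact permutation p = 0.44, adjusted 0.587; rho = 0.21, p = 0.619) in the Chen2008-1 set and 0.77 (p = 0.0639, adjusted 0.128; rho = 0.77, p = 0.103) in the Chen2008-25 set. No relation passed after adjustment.

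The Chen2008-25 genotype could be compared for the pair with only 1 clone on one side, which says little. E6, which retains 1 copy of that enhancer, differed from the 5 KO clones by 0.04 for Zbtb45 (95% interval -0.19 to 0.26, edgeR adjusted p = 0.95). For Trim28 the difference was -0.03 (95% interval -0.57 to 0.51, edgeR adjusted p = 0.99). The call share was 0.223% of 448 genes (1 gene), and E6 is assumed to vary like the others. Between clones deleted on 129 and on CAST the summed levels differed by 0.14 for Zbtb45 (95% interval -0.03 to 0.31) and 0.12 for Trim28 (-0.28 to 0.52), both with an edgeR adjusted p of 0.998. There 0% of genes passed with edgeR (13 had an unadjusted p under 0.05) and 0 with DESeq2.

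Likeness of the allelic ratio was measured as Pearson's r of log2 129 over CAST across the 14 clones, which fall into the genotype groups above and share their libraries. Trim28 and Zbtb45 were each other's nearest gene, at r = 1.00. Next came Ube2m, the conjugating enzyme for NEDD8, at 0.89 with Trim28 and 0.91 with Zbtb45. The zinc-finger gene Zfp446 followed at 0.78 and 0.81, Zfp324 at 0.72 and 0.71, and the tyrosine kinase gene Fgr at 0.72 and 0.68, while the median gene was at 0.01. Summed levels gave other lists. Among the genes most like Trim28 were the phosphatase subunit gene Ppp2ca (0.92), the initiation factor gene Eif4b (0.87), Agxt2l2 (0.82) and the ribosomal protein gene Rpl8 (0.80). Among those most like Zbtb45 were Eif4b (0.74), the cap-binding factor gene Eif4e2 (0.72), Themis2 (0.70) and Sesn2 (0.70), with a median gene at -0.05 for both. These correlations span both clone sets and a range of depth, and are descriptions.

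Of 10 genes listed as nearest neighbours, 7 are in the panel and 6 were tested. Ube2m (-0.31, SE 0.05, edgeR adjusted p = 0.00116) and Zfp446 (-0.36, SE 0.08, edgeR adjusted p = 0.0115) were lower on the modified copy. Zfp324 was at -0.55 (SE 0.16, edgeR adjusted p = 0.227), Mzf1 at -0.36 (SE 0.15) and Zscan22 at -0.06. The unmodified copy of Ube2m was higher as well, at 138% of the controls on 129 (log2 0.47, SE 0.09, edgeR adjusted p = 0.000232) and 142% on CAST (edgeR adjusted p = 0.00432). Its summed level was higher in the Chen2008-1 clones (126%, edgeR adjusted p = 0.000776). Zfp446, Zfp324, Mzf1 and Zscan22 did not pass on an unmodified copy.

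The panel holds little of the TRIM28 silencing machinery. Of 47 partners listed, only Cbx5 is measured, which encodes the heterochromatin protein HP1 alpha. Its summed level in the Chen2008-1 clones was 52.2% of the controls (log2 -0.94, SE 0.08, edgeR adjusted p = 3.03e-08), with -0.07 (SE 0.05) between its modified and unmodified copies. No other panel gene has a symbol that begins with Trim or Zbtb. By symbol alone, 24 other genes were taken as zinc-finger genes, with or without a KRAB domain. Of these, 16 had a lower and 0 a higher summed level in the Chen2008-1 clones. Their median log2 difference was -0.38 against 0.01 over all genes. Over all 448 genes tested, 29.5% were called lower and 63.8% were called in either direction.

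The lower zinc-finger genes include Zfp329, with the lowest estimate of the 24 (-1.28, SE 0.13, edgeR adjusted p = 1.41e-07), and Zscan18 (-1.12, SE 0.11, edgeR adjusted p = 1.13e-07). They also include Zfp365 (-0.67, SE 0.14, edgeR adjusted p = 0.000496) and Zfp281, a transcription factor of pluripotent cells (-0.37, SE 0.08, edgeR adjusted p = 0.000772). A symbol does not show whether a protein has a KRAB domain. Zfp446, Zfp324, Mzf1 and Zscan22 are among the 24 and are also listed neighbours of the pair. Positions of the others were not compared, and some may lie in the same stretch of chromosome 7. The 24 are therefore not taken as independent genes. In cis only Zfp446 of the 24 was called. With library totals, upper-quartile factors, DESeq2 or log2 depth in the fit, between 16 and 18 were lower and 0 higher, and Cbx5 lay between -1.06 and -0.96. The 18 arose with upper-quartile factors, which also raised the lower calls over all genes from 132 to 165. The clone set and the enhancer cannot be told apart in these summed levels.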

How the data were processed

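RNA was measured in 14 clones. The authors deposited whole-number counts of allele-assigned reads per gene, not normalized, with a 129 and a CAST column for each clone, per the file headers. The deposited genotype table holds text, not counts, per the file headers. The submitters' processing notes name the build mm9. No source used here names the aligner, the allele assignment or the use of strand. Even numbers made up 79.1% to 88.6% of counts from 1 to 19, so both mates of a fragment may have been counted. Wilson intervals cover counting error only. They take each read as independent and are too narrow if both mates were counted.

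The pair, the gene lists and the tests were chosen with earlier results of these data known. Of 472 genes, 1 was left out because its counts copied another's, and testing required a mean of 10 or more allelic reads. Clones of the same genotype differed by more than sampling noise (chi-square over degrees of freedom 3.31 to 24.8 in 26 pairs). edgeR 4.0.16 (R 4.3.3) quasi-likelihood tests used TMM factors from totals. The cis fit used all 14 clones, with a term for each clone, 1 for the allele and 1 for the deleted copy. Levels were fitted by group. Adjusted p-values are Benjamini-Hochberg over all genes tested, with a threshold of 0.05. Ratios and correlations had exact permutation tests (Python 3.11.15, SciPy 1.17.1). Likeness used log2 with 0.5 added. DESeq2 1.42.0, other scaling factors, no filter, halved counts, KO controls alone and leaving out each clone were alternatives, and log2 depth as a covariate was added after seeing the data. On simulated counts, changes of 0.5 and of 1.5 (log2) were recovered at 77.3% and 100% in the cis fit (445 genes), 7.1% and 69.0% between backgrounds (448 genes) and 79.6% and 100% between parental copies (445 genes). The rates were 93.9% and 100% for summed levels (446 genes), 82.2% and 100% on the unmodified 129 copy (413 genes) and 53.7% and 98.9% on the unmodified CAST copy (398 genes). They were 58.2% and 97.0% for E6 (447 genes) and 72.2% and 100% between directions of deletion (445 genes). Between 0.4% and 3.2% of unchanged genes were called. The simulation drew each copy on its own, with the same spread for all genes, so these are rates over the panel and not those of the pair.

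The text names the pair, the 5 genes most like each member by allelic ratio and by summed level, and measured members of the lists, except 1 gene that is not reported here. Promoters and transcripts were matched by symbol for both members.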

Additional observations from a re-analysis of the deposited data

How the results depend on the processing

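Of 480 alternative values, 443 were counted as the same. For levels and the balance of the copies, this meant the same direction and side of the threshold. The ratios of the pair were judged likewise, by their unadjusted p. A cis effect had to keep its direction and move by less than the SD between clones deleted on CAST. A count of called genes had to stay within a set fold change. The same verdict held in every alternative for the cis effects of both genes and the Zbtb45 levels on both unmodified copies. It also held in every alternative for the summed Trim28 level and the ratio on the unmodified 129 copy. With log2 depth as a covariate, Trim28 estimates changed sign on the unmodified 129 copy (0.0946), between E6 and KO clones (0.0543) and between deletions on 129 and on CAST (-0.108), none past the threshold before or after. Upper-quartile factors gave -0.0244 for Zbtb45 between E6 and KO clones and -0.24 for summed Zbtb45, which passed, as it did with DESeq2 (-0.15) and library totals (-0.15). Upper-quartile factors moved the median of all genes by -0.13 in summed levels and by -0.13 on both unmodified copies. They moved the share of summed calls that were higher from 53.8% to 41.1%, and on the unmodified copies from 55.2% to 41.1% (129) and from 62.6% to 41.9% (CAST). The causes were not tested. Leaving out 1 clone at a time gave 4 to 15 cis calls (15 without D2), 22 to 53 calls between backgrounds (22 without D2) and 89 to 155 calls on the unmodified CAST copy (89 without D2). It gave Trim28 ranges of -0.218 to -0.0603 between backgrounds, -0.0134 to 0.0025 between parental copies, -0.0758 to 0.0463 on the unmodified 129 copy, -0.209 to 0.395 on the unmodified CAST copy, -0.0977 to 0.043 for E6 and -0.22 to 0.355 between directions of deletion, the lowest of the fourth and last without D10 and the highest without D2. Summed Zbtb45 ran from -0.159 to -0.0897 and passed without B8, D2, D3, E7, G3, B4 or H2. The log2 ratio of the pair ran from 0.26 to 0.36 over sums, and from -0.0588 to 0.075 on the modified CAST copy. The copies of a clone were paired in the allelic fits. No pairing of clones between groups was possible because clones carry names and no replicate numbers shared between groups. Depth limits the values of D10 most.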

Other observations

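Within each group of 4 to 10 clones, the highest and lowest value of the pair were set against the rest by Dixon's ratio, and 0 of 22 such tests found an outlying clone. The Trim28 level of a clone had the second lowest correlation with depth among 448 genes in each clone set. Among the 20 most abundant genes, this correlation was below 0 for 18 in the Chen2008-1 set and for 19 in the Chen2008-25 set.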
